A study of Mus musculus with 12 samples.

Results

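The elastic microfibril genes described here are the fibrillins Fbn1 and Fbn2, the elastin gene Eln, the fibulins Fbln1, Fbln2, Fbln5, Efemp1 (fibulin-3) and Efemp2 (fibulin-4), and the microfibril-associated genes Mfap5 and Ltbp2. They were chosen by name, as components of fibrillin microfibrils and elastic fibres, with earlier results of these data known. All 10 were found among the 25230 genes listed in the counts. RNA-seq was performed on mouse mesangial cells (MMC), the contractile cells between the capillaries of the glomerulus, from wild-type (WT) mice and from mice of the lncMGC-KO5 line (KO), made in C57BL/6J embryos and crossed to C57BL/6. The KO5 mice carry a Cas9-made deletion around the transcription start site of lncMGC, the long noncoding RNA that hosts the miR-379 cluster. Cells of each genotype were serum-depleted untreated controls (SD) or received 10 ng/ml TGF-β, with 24 h given as the time for both conditions. The paper does not state whether the TGF-β cells were serum-depleted as well. This made 4 groups of 3 libraries, named WT-SD and WT-TGF, and KO-SD and KO-TGF. KO5 is a single mouse line, MMC were grown from pooled glomeruli and used as passaged cultures, and the labels tie no library to an animal, so the genotype cannot be told apart from the cultures it was measured in.

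Fibrillin-1 and fibrillin-2 are large glycoproteins that polymerise outside the cell into beaded microfibrils. In elastic tissues tropoelastin, the product of Eln, is laid onto these microfibrils with the help of fibulins and is then cross-linked by lysyl oxidases. In the glomerulus, mesangial matrix contains fibrillin microfibrils with little or no elastin, and microfibrils also hold latent TGF-β through the latent TGF-β binding proteins.

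The 12 libraries had between 19898050 and 22827706 counts on genes, so that the floor used for detection, a count of 3, lay at 0.130 to 0.160 CPM (the count scaled to a common library size by TMM). Pairs of libraries within a group differed beyond counting noise, the chi-square over its degrees of freedom being 1.33 to 5.20 in 12 pairs, and none was taken for a repeat of another. No label says that the libraries of a group came from separate cultures, so the p-values measure the spread between these libraries, which may be technical. That spread was small (biological coefficient of variation 0.0268), and with edgeR's quasi-likelihood test and Benjamini-Hochberg adjustment 72.4% of the 11487 genes tested passed FDR <5% for TGF-β in WT. Without TMM, scaling by library size alone, the median log2 fold change of all genes tested with TGF-β went from -0.01 to -0.16 in WT and from -0.02 to -0.23 in KO, and every fold change given here is relative to the TMM scale. lncMGC itself was not among the genes counted. Mirg, annotated at the end of that locus, had 2.14 to 2.69 CPM in WT-SD and 3.31 to 4.30 CPM in KO-SD. With TGF-β it had 3.45 to 3.75 CPM in WT and 3.64 to 4.65 CPM in KO. It was thus not lower in KO, whereas the paper reports significantly lower Mirg in KO5 than in WT MMC by RT-qPCR. Mirg therefore does not check the deletion, and the reason for this difference was not tested. The genotype is that of the libraries as labelled. The mesangial and smooth muscle markers Acta2, Tagln, Vim and Pdgfrb were high in each library, and the summed level of the 10 listed was 4438 to 4620 CPM in WT-SD and 14334 to 14503 CPM in KO-TGF, while Thy1 was at or near 0 in each group and Des was below 1 CPM in KO. Not all of the list rose with that sum, as Itga8 was lower with TGF-β in both genotypes (2.90 ± 0.250 CPM in WT-SD against 0.637 ± 0.0475 in KO-TGF) and Myh11 lower in KO in SD (1.39 ± 0.283 against 0.730 ± 0.334 CPM).

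Promoter sequences are shown for a gene that rose and for genes that fell with TGF-β, among those whose bases before the start lie outside annotated transcripts. RefSeq promoters were matched for 7 of the 10 genes, and not for Fbn2, Eln and Mfap5. In the 250 bases before each start, 5 motifs were searched on both strands: the SMAD box CAGAC, the SMAD palindrome GTCTAGAC, the AP-1 site TGANTCA, the TATA box TATAAA and the GC box GGGCGG. Of 32851 mouse promoters of the same length, 42.2% held a SMAD box, 0.167% the palindrome, 6.75% an AP-1 site, 12.4% a TATA box and 32.7% a GC box. Below are the bases before the first start of Efemp2, which rose with TGF-β in both genotypes, and of Fbln1, Fbln5 and Efemp1, which fell in both. Coordinates are those of GRCm38.p6 (mm10), each sequence is written 5′ to 3′ on the strand of its gene and ends where annotated transcripts begin, which leaves out the last 51 bases before the RefSeq start of Efemp1, and capitals mark matches to the SMAD box, the AP-1 site and the GC box.
Efemp2 (chr19:5473696-5473945, plus strand): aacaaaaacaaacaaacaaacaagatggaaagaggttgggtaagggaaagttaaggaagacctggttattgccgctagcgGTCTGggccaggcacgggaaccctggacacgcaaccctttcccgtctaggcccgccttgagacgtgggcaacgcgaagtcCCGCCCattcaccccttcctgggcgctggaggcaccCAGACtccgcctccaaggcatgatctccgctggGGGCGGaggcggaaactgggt
Fbln1 (chr15:85205699-85205948, plus strand): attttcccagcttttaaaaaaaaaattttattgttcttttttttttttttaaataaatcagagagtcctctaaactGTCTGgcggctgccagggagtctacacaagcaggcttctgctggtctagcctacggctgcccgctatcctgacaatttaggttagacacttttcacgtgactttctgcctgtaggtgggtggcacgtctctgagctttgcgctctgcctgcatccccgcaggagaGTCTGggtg
Fbln5 (chr12:101819120-101819369, minus strand): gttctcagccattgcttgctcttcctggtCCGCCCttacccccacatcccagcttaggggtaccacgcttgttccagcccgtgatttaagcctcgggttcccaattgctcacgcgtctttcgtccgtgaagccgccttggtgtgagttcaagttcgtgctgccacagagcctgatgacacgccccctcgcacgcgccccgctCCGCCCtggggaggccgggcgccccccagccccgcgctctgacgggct
Efemp1 (chr11:28852955-28853153, plus strand): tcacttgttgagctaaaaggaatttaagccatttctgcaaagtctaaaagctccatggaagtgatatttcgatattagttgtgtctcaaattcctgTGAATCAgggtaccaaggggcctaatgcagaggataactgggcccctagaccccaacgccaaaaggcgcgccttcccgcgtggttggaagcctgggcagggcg

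In the sequence of Efemp2 the capitals are SMAD boxes 170 and 54 bases and GC boxes 90 and 21 bases before the start. RefSeq starts 2 and 3 of Efemp2, not printed, held 5 GC boxes each and no SMAD box in the 250 bases before them. Bases just after each start were also looked for in GENCODE transcripts of the gene. They were found for Efemp2 at start 2 alone, for Fbln5 at neither start, and for Fbln1 and Efemp1 at the printed start. Fbln1 held SMAD boxes 174 and 9 bases before its first start. Its second RefSeq start, not printed, had SMAD boxes at 233 and 68 bases and a GC box at 11 bases. Fbln5 held GC boxes at 221 and 48 bases and no SMAD box at its first start. The second RefSeq start of Fbln5, not printed, had SMAD boxes at 199 and 15 bases. The AP-1 site of Efemp1 lay 154 bases before its start, and a GC box at 29 bases falls in the bases left out. The palindrome and the TATA box matched at none of the starts of the 7 genes. Fbn1 and Fbln2, which rose with TGF-β, held 1 GC box each and no SMAD box in the window, and Ltbp2 held 2 SMAD boxes and 2 GC boxes. These matches describe letters and are not measured binding sites.

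Per exon length, a few of the 10 genes carried nearly all of the signal. The length was the union of all annotated exons of a gene, and levels, shares and ratios by RPKM depend on it. The summed level was 329 ± 6.23 RPKM (CPM per kilobase of exon, SD, n = 3) in WT-SD, 565 ± 8.04 in WT-TGF, 414 ± 7.36 in KO-SD and 743 ± 9.09 in KO-TGF. The summed CPM was on average 0.254% of the TMM-scaled library size in WT-SD and 0.650% in KO-TGF, which is not the share of raw counts. In WT-SD the order by RPKM was Fbn1 (80.3 ± 1.26), Ltbp2 (73.7 ± 0.983), Fbln5 (58.8 ± 0.713), Fbln2 (56.2 ± 3.19), Efemp2 (39.5 ± 0.595) and Efemp1 (18.3 ± 1.67). Mfap5, Fbln1, Fbn2 and Eln followed at 1.37 RPKM or less. Libraries of neighbours in this order overlapped between Fbln5 and Fbln2 alone.

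With TGF-β in WT, Fbln2 moved to the second place (163 ± 3.72 RPKM) behind Fbn1 (225 ± 2.05), and Fbln5 dropped to the fifth (28.3 ± 0.818). Mfap5 and Efemp1 overlapped in WT-TGF, as did Fbn2 and Eln. In KO-SD, Fbln2 (118 ± 3.37) and Fbn1 (114 ± 2.18) overlapped at the top, and Ltbp2 (42.0 ± 0.797) took the fifth place, below Efemp2. In KO-TGF the order of the 5 leading genes was again Fbn1 (313 ± 1.66), Fbln2 (257 ± 7.05), Ltbp2 (77.4 ± 1.34), Efemp2 (72.1 ± 1.25) and Fbln5 (20.4 ± 1.26). Fbln1 and Mfap5 overlapped there, and Efemp1, the sixth in WT-SD, was the ninth (0.234 ± 0.0923).

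As a share of the summed RPKM, Fbn1 was 24.4% ± 0.0780 in WT-SD, 39.9% ± 0.394 in WT-TGF, 27.6% ± 0.469 in KO-SD and 42.2% ± 0.326 in KO-TGF. The share of Fbln5 went from 17.9% ± 0.398 to 5.00% ± 0.0800 with TGF-β in WT and from 21.3% ± 0.194 to 2.75% ± 0.148 in KO. Ltbp2 took 22.4% ± 0.581 in WT-SD, and in KO its share was 10.2% ± 0.243 in SD and 10.4% ± 0.279 with TGF-β. Efemp2 ranged from 9.71% in KO-TGF to 11.996% in WT-SD in the group means. Shares sum to a whole, so a rise of 1 gene lowers the share of the others.

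**Figure D1:**
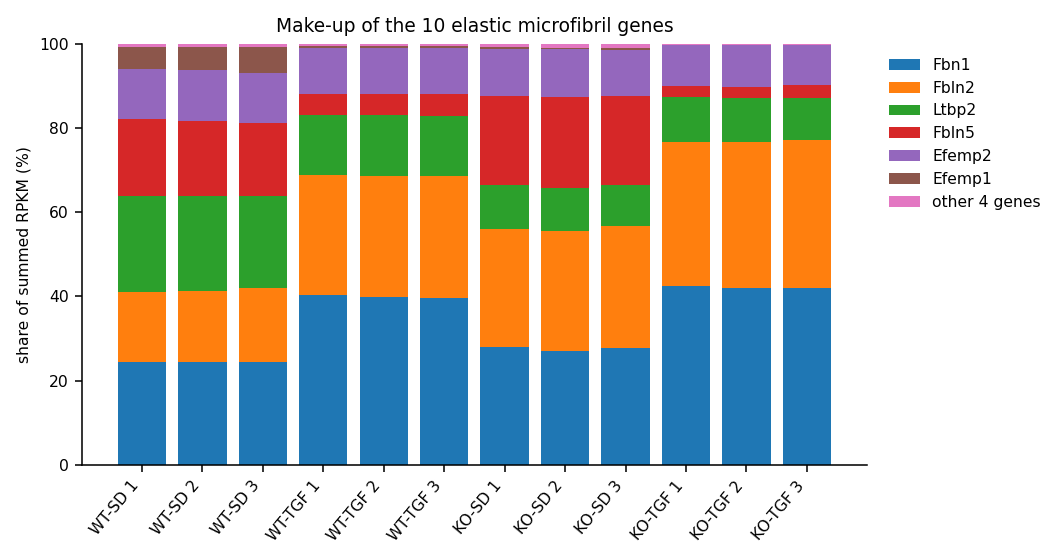
Share of the summed RPKM of the 10 genes (percent, vertical axis) in each of the 12 libraries (horizontal axis), coloured by gene, with Mfap5, Fbln1, Fbn2 and Eln drawn together. Fbn1 widens from 24.4% in WT-SD to 39.9% in WT-TGF on average, and Fbln5 narrows to 2.75% in KO-TGF.

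Fbn1 encodes fibrillin-1, the main structural protein of microfibrils, and lies on chromosome 2 (125300594 to 125506485, minus strand, GRCm38.p6). It had 968, 963 and 991 CPM in the 3 WT-SD libraries and 2719, 2760 and 2716 CPM in WT-TGF. In KO, Fbn1 had 1372, 1366 and 1415 CPM in SD and 3777, 3794 and 3817 CPM with TGF-β. No library of one group overlapped another group, and the levels placed Fbn1 above 97.4% of the genes tested in WT-SD and above 99.4% in KO-TGF. Fbn1 rose with TGF-β by a log2 fold change of 1.49 (SE 0.020, FDR = 7.77e-32) in WT and 1.46 (SE 0.020, FDR = 9.46e-32) in KO. The 2 responses differed by -0.03 on the log2 scale (95% interval -0.09 to 0.03, FDR = 0.452). KO was higher than WT by 0.51 (FDR = 1.38e-19) in SD and 0.47 (FDR = 4.86e-19) with TGF-β.

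Fbn2 encodes fibrillin-2, the fibrillin made mainly during development, and lies on chromosome 18 (58008623 to 58210572, minus strand). Its counts were low. In WT, Fbn2 had 2.41, 2.87 and 2.69 CPM in SD and 3.97, 3.21 and 3.01 CPM with TGF-β. In KO, Fbn2 had 1.42, 1.30 and 1.74 CPM in SD and 1.02, 0.801 and 1.52 CPM with TGF-β. Both KO groups lay below both WT groups, and the KO groups overlapped each other. Fbn2 and Eln stayed at or under 1 RPKM in all libraries, below the limit for testing, and were read from a wider fit that kept every gene with any count (18565 genes). In that fit 41.3% of genes passed FDR <5% between KO and WT in SD, 39% with TGF-β, 51.6% for TGF-β in WT and 52.3% for TGF-β in KO. Fbn2 was lower in KO by a log2 fold change of -0.80 (SE 0.19, FDR = 0.000108) in SD and -1.59 (SE 0.20, FDR = 3.44e-14) with TGF-β. Its change with TGF-β was 0.39 in WT (FDR = 0.0311), which was no longer called with library size alone (0.20), with DESeq2 (0.37), or without WT-SD replicate 1 (0.32), WT-SD replicate 3 (0.39) or WT-TGF replicate 1 (0.26). In KO it was -0.40 (FDR = 0.160), and it passed the threshold without KO-TGF replicate 3 (-0.70) and with library size alone (-0.62). On the RPKM scale the level of Fbn1 was 401 ± 35.6 times that of Fbn2 in WT-SD and 889 ± 125 times in WT-TGF.

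Eln encodes tropoelastin, the soluble precursor of elastin, and lies on chromosome 5 (134702595 to 134747368, minus strand). It was the lowest of the 10 genes per length in WT-SD, with counts of 3, 5 and 9 (0.137, 0.217 and 0.410 CPM). With TGF-β, WT had 2.22, 1.56 and 1.93 CPM. In KO, Eln had 1.65, 1.30 and 1.38 CPM in SD and 3.69, 3.63 and 3.20 CPM with TGF-β. The WT-SD libraries lay below all others and the KO-TGF libraries above all others. Eln rose with TGF-β by a log2 fold change of 2.90 (SE 0.31, FDR = 3.77e-20) in WT and 1.29 (SE 0.19, FDR = 2.84e-11) in KO. In SD it was higher in KO by 2.51 (95% interval 1.87 to 3.16, FDR = 2.02e-13), and with TGF-β by 0.90 (0.55 to 1.25, FDR = 2.25e-06). Even in KO-TGF the level of Fbn1 per length was 726 ± 61.5 times that of Eln.

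**Figure D2:**
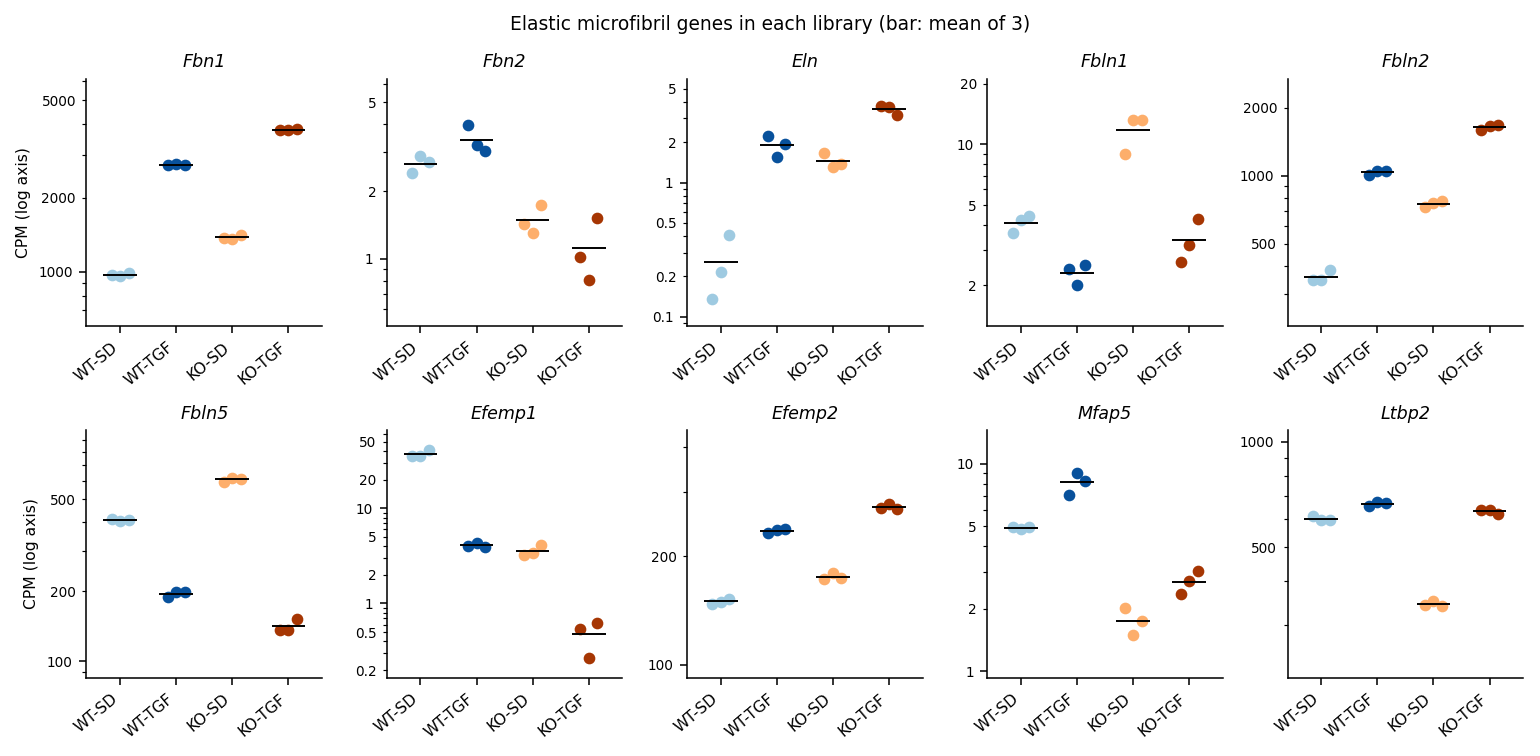
CPM on a log axis (vertical) of each of the 10 genes in the 3 libraries of each group (horizontal), with a point per library and a bar at the mean. Fbn1, Fbln2, Efemp2 and Eln have their highest libraries in KO-TGF, where Efemp1 and Fbn2 have their lowest, and the axes differ in range between panels.

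Of the fibulins, Fbln2 and Efemp2 rose with TGF-β in both genotypes, and Fbln1, Fbln5 and Efemp1 fell in both. Fbln2 encodes fibulin-2, which binds fibrillin-1 and tropoelastin, and lies on chromosome 6 (91212460 to 91272540, plus strand). In WT, Fbln2 had 346, 346 and 381 CPM in SD and 1009, 1053 and 1048 CPM with TGF-β. In KO, Fbln2 had 729, 755 and 771 CPM in SD and 1589, 1653 and 1676 CPM with TGF-β, and the 4 groups did not overlap. TGF-β raised it by a log2 fold change of 1.53 (SE 0.031, FDR = 1.09e-27) in WT and 1.13 (SE 0.030, FDR = 1.13e-24) in KO. KO was higher by 1.07 (FDR = 3.20e-23) in SD and by 0.66 (FDR = 2.31e-18) with TGF-β.

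Fbln5 encodes fibulin-5, which binds tropoelastin and integrins and is needed for elastic fibre assembly, and lies on chromosome 12 (101746565 to 101819119, minus strand). That chromosome also holds Ltbp2 and the lncMGC locus, and whether this location bears on either gene was not tested. Fbln5 had 412, 402 and 405 CPM in WT without TGF-β and 189, 199 and 198 CPM with it. In KO, Fbln5 had 596, 619 and 613 CPM in SD and 136, 137 and 151 CPM with TGF-β. KO was thus above WT in SD and below it with TGF-β, with no overlap in either condition. Fbln5 fell by 1.06 on the log2 scale (SE 0.031, FDR = 1.99e-23) in WT and fell by 2.11 (SE 0.032, FDR = 9.15e-31) in KO. The difference between genotypes was 0.58 (FDR = 5.51e-17) in SD and -0.47 (FDR = 2.66e-13) with TGF-β. Per length, Fbln5 was 1.05 ± 0.0618 times Fbln2 in WT-SD and 0.0794 ± 0.00359 times Fbln2 in KO-TGF.

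Fbln1 encodes fibulin-1, found in elastic fibres and basement membranes, and lies on chromosome 15 (85205949 to 85286294, plus strand). Its level was low, and it passed the limit for testing only in KO-SD and 1 WT-SD library, so its fold changes are descriptions. In WT, Fbln1 had 3.64, 4.21 and 4.42 CPM in SD and 2.41, 2.005 and 2.52 CPM with TGF-β. In KO, Fbln1 had 8.96, 13.2 and 13.2 CPM in SD and 2.62, 3.15 and 4.25 CPM with TGF-β. KO-SD lay above all other groups, and KO-TGF overlapped WT-SD. Fbln1 fell with TGF-β by 0.83 on the log2 scale (SE 0.19, FDR = 0.000365) in WT and fell by 1.81 (SE 0.15, FDR = 4.05e-12) in KO. It was higher in KO by 1.52 (FDR = 7.69e-11) in SD. With TGF-β the difference was 0.54 (FDR = 0.0310), which did not pass with library size alone (0.42), without WT-TGF replicate 2 (0.44) or without KO-TGF replicate 3 (0.34). The 10 fibroblast markers summed, with KO-SD highest as for Fbln1, to 35.5 to 40.7 CPM in WT-SD, 11.6 to 12.8 in WT-TGF, 91.4 to 94.0 in KO-SD and 26.9 to 27.0 in KO-TGF. Of these 10, 4 passed the limit for testing, and all 4 were lower with TGF-β in both genotypes. Others went the opposite way in the wider fit, as Pi16 rose with TGF-β by a log2 fold change of 2.69 in WT (FDR = 1.37e-12) and 0.64 in KO (FDR = 0.00961), and Dpt, with 0 to 1 counts in WT-SD and 15 to 18 in KO-TGF, was called higher with TGF-β in WT (FDR = 0.00509) and not in KO (FDR = 0.0961). Both had their highest level in KO-TGF. Dcn (decorin) made up most of this sum in KO, Pdgfra was higher in WT-SD (3.55 CPM) than in KO-SD (1.97 CPM), and Lum was at or near 0. Their part in the level of Fbln1 was not tested, and in bulk RNA fewer cells of a type and less RNA per cell cannot be told apart.

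Efemp1 encodes fibulin-3, a fibulin abundant in elastic and basement membrane matrix, and lies on chromosome 11 (28853154 to 28926743, plus strand). It showed the largest fold changes of the 8 genes that passed the limit for testing. It passed that limit in no KO-TGF library, so these changes are descriptions. In WT, Efemp1 had 35.1, 35.7 and 41.3 CPM in SD and 4.06, 4.28 and 3.90 CPM with TGF-β. In KO, Efemp1 had 3.22, 3.43 and 4.08 CPM in SD and counts of 10, 5 and 12 (0.535, 0.267 and 0.630 CPM) with TGF-β. WT-SD lay above and KO-TGF below all other libraries, while WT-TGF and KO-SD overlapped. Efemp1 fell with TGF-β by 3.19 on the log2 scale (SE 0.091, 9.13-fold, FDR = 8.51e-24) in WT and fell by 2.89 (SE 0.25, 7.40-fold, FDR = 7.89e-12) in KO. It was lower in KO by a log2 fold change of -3.38 (FDR = 1.23e-23) in SD and -3.08 (FDR = 2.29e-12) with TGF-β. The difference between the responses was 0.30 (95% interval -0.42 to 1.03, FDR = 0.598), and it was 0.62 without KO-TGF replicate 2 and 0.086 without KO-TGF replicate 3.

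The summed levels of the tubular, macrophage and endothelial marker lists were highest in WT-SD and lowest in KO-TGF, as was Efemp1, but not each marker followed. The 8 tubular markers summed to 68.0 to 74.9 CPM in WT-SD, 17.9 to 19.7 in WT-TGF, 14.4 to 15.9 in KO-SD and 7.03 to 7.43 in KO-TGF. Lrp2 and Cdh16 carried most of the WT sum, and Slc34a1, Umod and Aqp2 were at 0 in all 12 libraries. Slc12a1 ran the opposite way, at 0.358 ± 0.117 CPM in WT-SD, 0.842 ± 0.0978 in WT-TGF, 1.25 ± 0.353 in KO-SD and 3.05 ± 0.232 in KO-TGF, and was called higher in all 4 comparisons in the wider fit. The 8 macrophage markers summed to 35.4 to 39.2 CPM in WT-SD, 18.7 to 22.1 in WT-TGF, 8.36 to 9.91 in KO-SD and 2.62 to 2.89 in KO-TGF, and Adgre1 and Tyrobp were at 0 in both KO groups. The 8 endothelial markers, whose sum was nearly all Ehd3, summed to 33.3 to 33.6 CPM in WT-SD, 20.5 to 22.8 in WT-TGF, 17.5 to 18.7 in KO-SD and 9.81 to 11.5 in KO-TGF, with Cdh5 at or near 0. Of the podocyte markers, Synpo was the most abundant and did not follow Efemp1, at 247 ± 4.75 CPM in WT-SD, 313 ± 6.92 in WT-TGF, 160 ± 2.63 in KO-SD and 172 ± 6.47 in KO-TGF. Podxl was, as Efemp1, highest in WT-SD and lowest in KO-TGF, with 98.1 ± 2.74, 74.0 ± 1.29, 32.8 ± 0.373 and 25.8 ± 1.27 CPM in the same groups, and Nphs1 was at or near 0. Their part in the level of Efemp1 was not tested.

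Efemp2 encodes fibulin-4, which is required for elastic fibre formation and brings lysyl oxidase to tropoelastin, and lies on chromosome 19 (5473946 to 5482520, plus strand). In WT, Efemp2 had 148, 149 and 152 CPM in SD and 231, 237 and 238 CPM with TGF-β. In KO, Efemp2 had 172, 179 and 174 CPM in SD and 271, 279 and 270 CPM with TGF-β. The 4 groups did not overlap, and KO-SD lay between WT-SD and WT-TGF. TGF-β raised it by a log2 fold change of 0.65 (SE 0.027, FDR = 1.08e-19) in WT and 0.64 (SE 0.026, FDR = 9.31e-20) in KO. KO was higher by 0.22 in SD (FDR = 2.44e-08) and by 0.22 with TGF-β (FDR = 1.97e-08), and the difference between the responses was -0.01 (95% interval -0.08 to 0.07, FDR = 0.911), with the opposite sign (0.02) under the size factors of DESeq2. Per length, Efemp2 was 2.16 ± 0.159 times Efemp1 in WT-SD, 31.0 ± 1.56 times in WT-TGF and 26.6 ± 3.25 times in KO-SD. In KO-TGF, where Efemp1 rested on 5 to 12 counts, the ratio ranged from 231 to 561. Efemp2 shares 173 exon bases with Mus81 on the opposite strand, and the authors counted by strand.

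Mfap5 encodes MAGP-2, a small glycoprotein bound along microfibrils, and lies on chromosome 6 (122513584 to 122529290, plus strand). In WT, Mfap5 had 4.97, 4.82 and 4.97 CPM in SD and 7.09, 9.04 and 8.29 CPM with TGF-β. In KO, Mfap5 had 2.02, 1.497 and 1.74 CPM in SD and 2.35, 2.72 and 3.04 CPM with TGF-β. Both KO groups lay below both WT groups, and TGF-β libraries lay above SD libraries within each genotype. Mfap5 was lower in KO by a log2 fold change of -1.48 (SE 0.16, FDR = 1.74e-09) in SD and -1.59 (SE 0.13, FDR = 1.34e-11) with TGF-β. It passed the limit for testing only in WT libraries, where it was high, so its fold changes are descriptions. It rose with TGF-β by 0.73 (FDR = 1.33e-06) in WT and 0.62 (FDR = 0.00342) in KO. The difference between these responses was -0.11 (95% interval -0.56 to 0.35, FDR = 0.787), and it changed sign without the first KO-SD replicate (0.01) or the first KO-TGF replicate (0.02).

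Ltbp2 encodes latent TGF-β binding protein 2, which binds fibrillin-1 and, unlike other members of its family, does not bind latent TGF-β, and lies on chromosome 12 (84783212 to 84876558, minus strand). In WT, Ltbp2 had 613, 599 and 599 CPM in SD and 656, 675 and 667 CPM with TGF-β. In KO, Ltbp2 had 341, 351 and 339 CPM in SD and 640, 640 and 621 CPM with TGF-β. KO-SD stood apart below the other 3 groups, which lay close together without overlap. Without TGF-β, Ltbp2 was lower in KO by a log2 fold change of -0.81 (SE 0.024, FDR = 5.66e-23). With TGF-β the difference was -0.07 (SE 0.023, FDR = 0.00972), and it did not pass without any 1 of the KO-TGF replicates (-0.06, -0.06 and -0.04). TGF-β raised Ltbp2 by 0.88 in KO (FDR = 1.89e-24) and by 0.14 in WT (FDR = 2.69e-06), where scaling by library size alone turned the sign (-0.01, FDR = 0.633). An antisense gene, D030025P21Rik, shares 764 exon bases with Ltbp2 on the opposite strand.

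Of the 10 genes, 8 passed the limit of RPKM >1 in at least 1 library. Fbn1, Fbln2, Fbln5, Efemp2 and Ltbp2 passed in all 12 libraries. Mfap5 passed only in WT libraries, Fbln1 in 1 WT-SD library and the 3 KO-SD libraries, and Efemp1 in no KO-TGF library. These 3 thus passed through the groups in which they were high. Their fold changes and FDR, above and below, and the counts that follow are descriptions. In WT-TGF against WT-SD, 5 of the 8 were higher and 3 lower at FDR <5%, beside 72.4% of all genes tested called (35.9% higher, 36.5% lower). The median log2 fold change of the 8 was 0.40, beside -0.01 over all genes tested. In KO-TGF against KO-SD, 5 were higher and 3 lower, beside 74% called (35% higher, 39% lower), with a median of 0.63 beside -0.02. With so large a share of all genes called, that all 8 passed is close to what most genes did. With a fold change >2 required as well, Fbn1 and Fbln2 rose and Fbln5 and Efemp1 fell in WT, beside 4.19% of all genes tested higher and 5.66% lower. In KO the same 4 genes and Fbln1 passed, beside 4.41% higher and 9.03% lower. No library of the 8 genes overlapped between SD and TGF-β in either genotype, as for 75.2% of all genes tested in WT and 74.3% in KO.

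**Figure D3:**
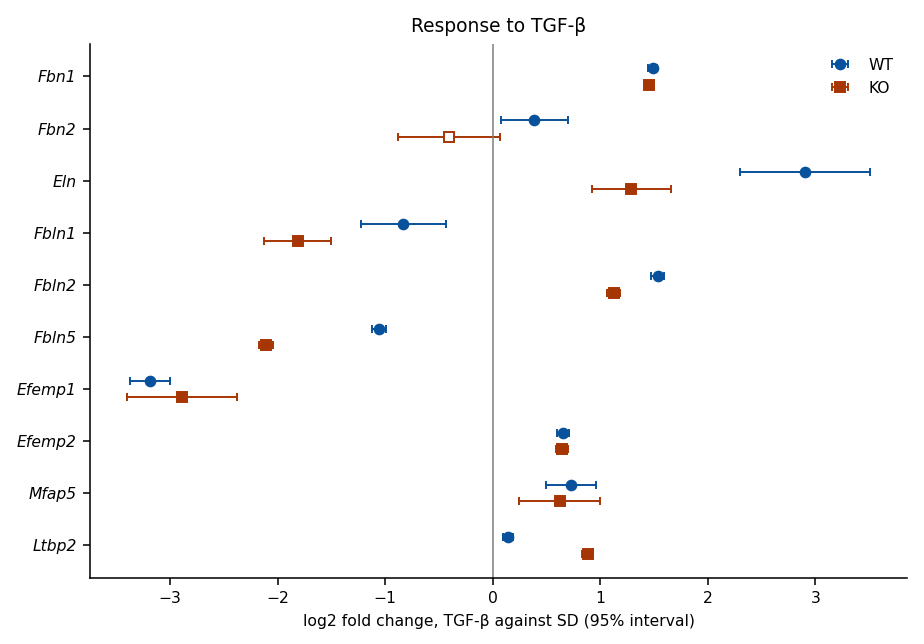
Log2 fold change with TGF-β against SD (horizontal, bars are 95% intervals of the edgeR fit, 3 libraries a group) of each gene in WT (circles) and KO (squares), filled where called at FDR <5%. Fbn1, Efemp2 and Mfap5 have nearly equal responses, Fbln5 falls further in KO (-2.11 against -1.06), and Ltbp2 rises by 0.88 in KO against 0.14 in WT, a value whose sign turned with library size alone.

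The genotype comparisons use the same libraries as the TGF-β comparisons and are not independent of them. Between genotypes, the SD libraries had 5 of the 8 tested genes higher and 3 lower in KO at FDR <5%, beside 55.9% of all genes tested called (30.6% higher, 25.3% lower) and medians of 0.37 and 0.02. In KO-TGF against WT-TGF, 4 were higher and 4 lower, beside 55.1% called (27.2% higher, 27.8% lower) and a median of 0.07 beside -0.00350. Fbn1, Fbln1, Fbln2 and Efemp2 were higher in KO in both conditions, Efemp1, Mfap5 and Ltbp2 lower in both, and Fbln5 was higher in SD and lower with TGF-β. Of these calls, those of Fbln1 and Ltbp2 with TGF-β are the ones lost when a library was left out, as given with those genes. Libraries of all 8 stood apart between the genotypes in both conditions, as for 59.1% of all genes tested in SD and 61.6% with TGF-β.

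**Figure D4:**
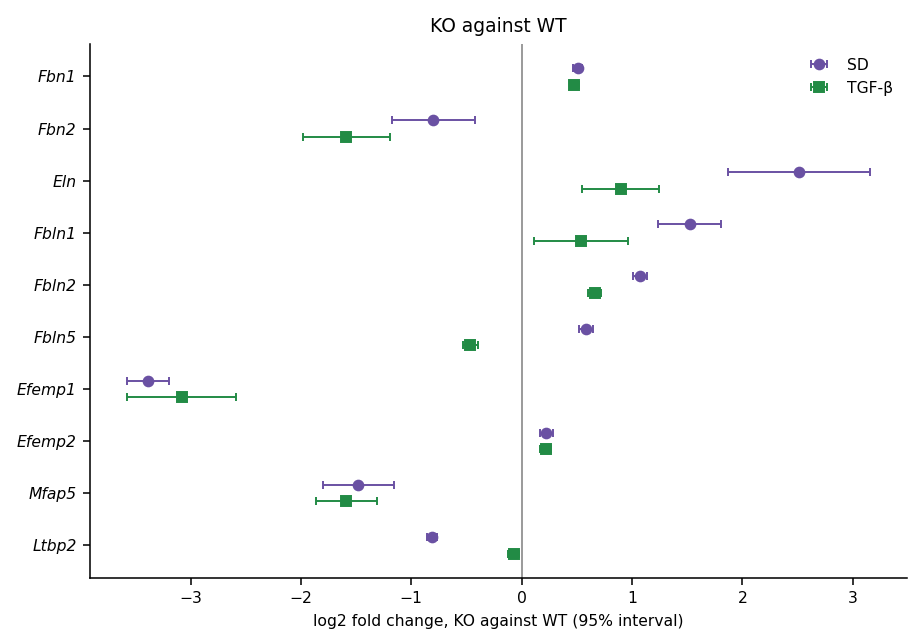
Log2 fold change of KO against WT (horizontal, bars are 95% intervals, 3 libraries a group) of each gene in SD (circles) and with TGF-β (squares), all called at FDR <5%. Efemp1 lies lowest in both conditions (-3.38 and -3.08), Fbln5 is on opposite sides of 0 (0.58 and -0.47), and Ltbp2 in TGF-β lies close to 0 (-0.07).

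Whether the TGF-β response itself differed between genotypes was tested as the interaction, the log2 response in KO minus that in WT. It was called for 4 of the 8 genes tested, 3 lower and 1 higher, beside 25.3% of all genes tested (16.6% lower, 8.77% higher). Fbln5 had the largest difference among them (-1.05, 95% interval -1.14 to -0.96, FDR = 8.13e-18), and it fell further in KO, from a higher SD level. Fbln1 also fell further in KO (-0.98, FDR = 0.00435), a description, as this gene passed the limit for testing in SD libraries alone. On the log2 scale Fbln2 rose less in KO, from a higher SD level (-0.41, FDR = 5.66e-09), and Ltbp2 rose more (0.74, FDR = 3.32e-17). Fbn1, Efemp1, Efemp2 and Mfap5 were not called, and their intervals are given above. In the wider fit, in which 17.3% of genes were called, Eln rose less on the log2 scale in KO, from a higher SD level (-1.61, FDR = 0.000487). The difference for Fbn2 was -0.79 (FDR = 0.0385) and was lost with DESeq2 (FDR = 0.244), with the size factors of DESeq2 (FDR = 0.0607) and with a CPM filter (FDR = 0.0511). It was also lost without WT-SD replicate 1 (-0.73), WT-SD replicate 2 (-0.85) or WT-TGF replicate 1 (-0.66), without KO-SD replicate 3 (-0.66), and without the first (-0.73) or the second (-0.60) of the KO-TGF libraries.

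Across the 12 libraries, the gene whose log2 CPM most resembled each member was found among all genes tested, as a description of these 4 groups. Since libraries of a group lie close together, these correlations rest on 4 group levels. For Fbn1 it was Zfp469 (Pearson r = 0.9994 over 12 libraries), a zinc finger gene that was also nearest to Efemp2 (r = 0.9987). Zfp469 had 91.9 ± 3.77 CPM in WT-SD, 243 ± 2.35 in WT-TGF, 125 ± 3.19 in KO-SD and 336 ± 3.61 in KO-TGF, in the same order of groups as Fbn1. Fbn1 itself was the third in likeness to Efemp2 (r = 0.9981). Fbln2 was nearest to Pycr1 (r = 0.9974), an enzyme of proline synthesis, Fbln5 to Ablim1 (r = 0.9981), Efemp1 to Efnb1 (r = 0.9960), Mfap5 to Dennd5b (r = 0.9864) and Ltbp2 to Slco2a1 (r = 0.9890), a prostaglandin transporter. Fbln1 was nearest to Ncapd2 (r = 0.9866), a condensin subunit. Among pairs of the 8 genes, Fbln2 and Efemp1 ran most opposite to each other (r = -0.96).

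The genes that build, cross-link, process and bind microfibrils were taken as a list of 48 partners, of which 35 were tested. With TGF-β, 23 were higher and 9 lower in WT (median log2 fold change 0.49) and 20 higher and 13 lower in KO (median 0.19), beside 72.4% and 74% of all genes called and medians of -0.01 and -0.02. Between genotypes, the SD libraries gave 15 higher and 10 lower in KO (median 0.03), and the TGF-β libraries 13 higher and 16 lower (median -0.09), beside 55.9% and 55.1%. The interaction was called for 4 higher and 18 lower (median -0.22), beside 8.77% higher and 16.6% lower over all genes tested. Fbln7, Hmcn1 and Itgb8 passed the limit for testing only in SD libraries, Adamtsl2 only in WT-TGF and Mmp9 only in KO-TGF libraries. Adamtsl3 passed in no WT-SD library, and Ctsk, counted with the elastases below, in 1 WT-TGF library alone. These partners passed through groups in which they were high, so their values and these counts are descriptions.

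Of the microfibril and elastin partners, 2 of 5 tested rose and 3 fell with TGF-β in each genotype. This count, and those of the subgroups below, stand beside 72.4% of all genes tested called in WT and 74% in KO. With so large a share called, a call is what most genes had. Emilin1, a glycoprotein at the interface of elastin and microfibrils, went from 178 ± 4.81 to 361 ± 10.0 CPM in WT cells, and in KO cells from 164 ± 10.4 to 199 ± 2.49 CPM. Its response was smaller in KO (-0.74, FDR = 1.43e-13). Mfap2, which encodes MAGP-1, was at 15.5 ± 0.234 CPM in WT-SD, 13.5 ± 0.754 in WT-TGF, 15.3 ± 0.781 in KO-SD and 7.27 ± 1.11 in KO-TGF. Hmcn1 (hemicentin-1) and Fbln7 (fibulin-7) fell with TGF-β in both genotypes, Fbln7 from 15.95 ± 0.247 to 2.29 ± 0.497 CPM in WT cells, and in KO cells from 20.1 ± 1.69 to 1.93 ± 0.173 CPM. Of the 3 latent TGF-β binding proteins in the list, 2 rose and 1 fell in WT, and 1 rose and 2 fell in KO. Ltbp1, which tethers latent TGF-β to microfibrils, was higher in KO in both conditions, at 60.8 ± 2.98 and 139 ± 0.708 CPM in WT-SD and KO-SD and at 94.0 ± 4.496 and 176 ± 4.502 CPM with TGF-β.

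Of the 6 cross-linking genes, which include the lysyl oxidases and the copper pump Atp7a, 5 rose and 1 fell with TGF-β in each genotype. Over all genes tested, 35.9% were higher and 36.5% lower in WT, and 35% higher and 39% lower in KO. Loxl2 rose from 496 ± 2.19 to 1728 ± 41.7 CPM in WT cells, and in KO cells from 798 ± 17.4 to 2378 ± 6.16 CPM, and Loxl1, which acts on elastin, from 333 ± 9.26 to 730 ± 9.39 and from 284 ± 8.11 to 588 ± 8.07 CPM. Loxl4 rose more in KO (interaction 0.45, FDR = 0.000301). Furin, the convertase that trims profibrillin, rose by a log2 fold change of 1.02 in WT and 1.08 in KO.

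ADAMTS and ADAMTS-like genes, whose products bind or process microfibrils, gave 4 higher and 1 lower of 6 tested in WT and 3 higher and 1 lower in KO. Of all genes tested, 72.4% were called in WT and 74% in KO. Adamtsl3 rose from 2.21 ± 0.326 to 18.3 ± 0.138 CPM in WT cells, and in KO cells from 10.2 ± 0.637 to 23.8 ± 0.249 CPM, with a smaller response in KO (-1.82, FDR = 2.45e-12). Adamts6 also rose less in KO (-0.47, FDR = 5.05e-08). Adamtsl2, a fibrillin-1-binding protein, had 0 to 2 counts a library in WT-SD and 1 to 3 in KO-SD. With TGF-β it reached 7.99 ± 0.879 CPM in WT cells and 4.00 ± 0.504 CPM in KO cells, a ratio to SD of 178 (95% counting interval 60.5 to 865, exact binomial) in WT and 51.4 (21.7 to 160.0) in KO.

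Integrins that bind fibrillin or fibronectin gave 5 higher and 1 lower of 6 tested in each genotype, beside 72.4% of all genes called in WT and 74% in KO. Itga5 rose from 173 ± 8.47 to 1192 ± 31.0 CPM in WT cells, and in KO cells from 236 ± 5.08 to 1991 ± 9.04 CPM, and Itgb3 from 67.4 ± 2.58 to 278 ± 8.92 and from 52.0 ± 2.44 to 209 ± 2.42 CPM. Itgb1 rose by 1.21 on the log2 scale in WT and 1.19 in KO, and Itgb8, whose integrin activates latent TGF-β, fell by 0.98 and fell by 1.45. Of 5 elastases tested, 4 rose in WT, and 3 rose and 2 fell in KO, and of the 3 genes of the elastin receptor complex 2 fell in WT and 3 in KO. Mmp9, a gelatinase that cleaves elastin, was at 1.02 ± 0.362 CPM in WT-SD, 1.75 ± 0.0898 in WT-TGF, 0.438 ± 0.131 in KO-SD and 9.34 ± 0.954 in KO-TGF, and its response was larger in KO by 3.62 (FDR = 3.86e-09). It passed the limit for testing only in KO-TGF, the group in which it was high, so this difference is a description. Mmp14, a membrane-bound matrix protease, was higher in KO in SD (657 ± 2.57 and 1342 ± 8.35 CPM in WT and KO) and with TGF-β (1189 ± 18.4 and 2108 ± 13.4 CPM).

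**Figure D5:**
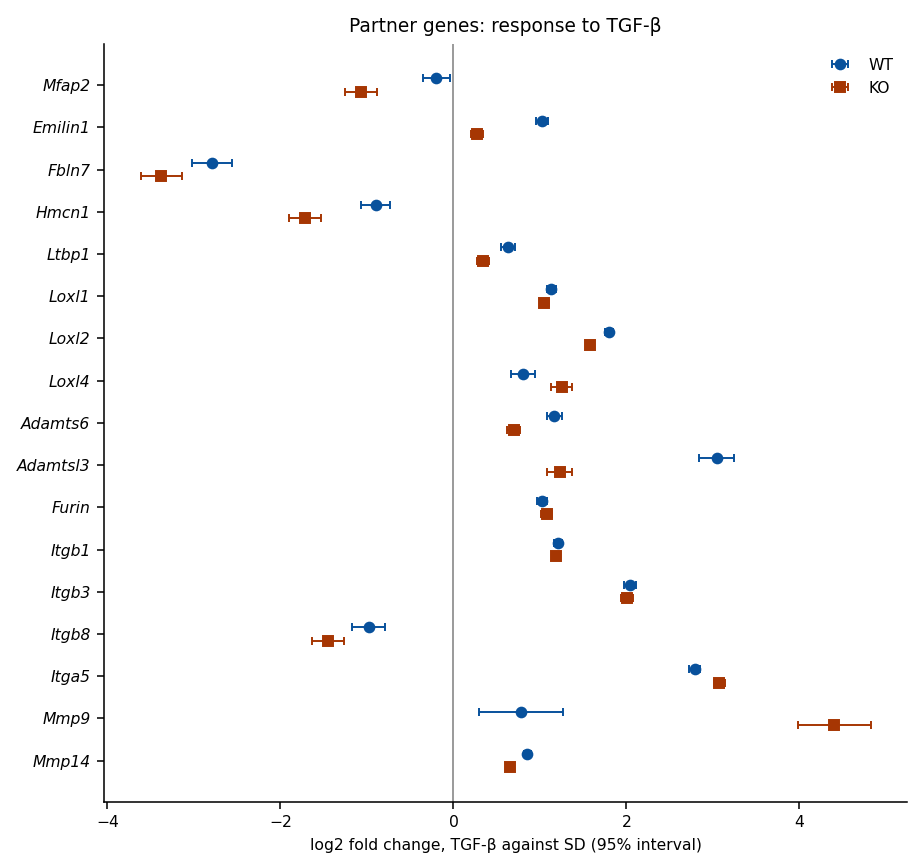
Log2 fold change with TGF-β against SD (horizontal, bars are 95% intervals, 3 libraries a group) in WT (circles) and KO (squares) of 17 partner genes chosen by size of change, without Adamtsl2, which had at most 3 counts a library in SD. Mmp9, which passed the limit for testing only in KO-TGF, lies furthest apart between genotypes (0.78 and 4.40), and Loxl1, Furin, Itgb1 and Itgb3 nearly coincide.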

How the data were processed

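RNA-seq was measured in 12 libraries of 4 groups of 3, grouped by the sample labels. The values deposited by the authors are raw counts per RefSeq gene, made from strand-specific mRNA libraries with TopHat and HTSeq-count on mm10. Rows that name no gene were left out, at 10.3% to 15.4% (no feature), 11.2% to 11.7% (several alignments) and 0.225% to 0.274% (ambiguous) of a library. Reads with several alignments are not in the counts, which can lower genes with close copies. Here, counts were normalized by TMM, genes with RPKM >1 in at least 1 library (GENCODE vM21 exon lengths) were kept, and one fit of all libraries was tested in edgeR 4.0.16 (R 4.3.3) by its quasi-likelihood test at FDR <5%, Benjamini-Hochberg adjusted. The fit was first tested on simulated data. Standard errors come from the same fit, and CPM and RPKM are means ± SD of 3 libraries. Alternatives were library size alone, the size factors of DESeq2, DESeq2 1.42.0, a CPM filter, no filter, only the groups compared, a replicate block and each library left out. The members and lists were chosen with earlier results of these data known. Named partners had FDR <5%, fold change >2 in a contrast and at least 5 CPM in the higher group. For each tested member, the gene with the highest Pearson r of log2 CPM is named, beside marker genes and overlapping genes. A listed marker is not reported here.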

Additional observations from a re-analysis of the deposited data

Results flagged for a closer look

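The TGF-β response differed between WT and KO by the interaction test for several of the genes described. Among the 10 genes the difference (log2 response in KO minus that in WT) was -0.79 for Fbn2, -1.61 for Eln, -0.98 for Fbln1, -0.41 for Fbln2, -1.05 for Fbln5 and 0.74 for Ltbp2. The value for Fbn2 was lost under several alternatives and without any of 6 libraries. Fbln1 and Fbln5 fell further in KO, while Eln and Fbln2 rose less, so a negative difference covers both patterns.

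Among the named partners the difference was -0.87 for Mfap2, -0.74 for Emilin1, -0.59 for Fbln7, -0.82 for Hmcn1, -0.28 for Ltbp1, -0.22 for Loxl2, 0.45 for Loxl4, -0.47 for Adamts6, -1.82 for Adamtsl3, -0.47 for Itgb8, 0.29 for Itga5, 3.62 for Mmp9 and -0.20 for Mmp14. Fbln7, Hmcn1 and Itgb8, which passed the limit for testing only in SD libraries, fell further in KO, and so did Mfap2. The level of Mmp9 without TGF-β was 1.02 CPM in WT cells and 0.438 CPM in KO cells, and it passed the limit for testing only in KO-TGF. Groups of 3 libraries were not tested for single libraries that lie apart.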

How the results depend on the processing

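Of 928 alternative values of the members' log2 fold changes, 893 kept their direction and side of the threshold, 20 no longer passed it, 3 newly passed it and 12 changed sign. Sign changes in log2 fold change were -0.013 for Ltbp2 in WT-TGF against WT-SD with library size alone and, for interactions that were not called, 0.018 for Efemp2 both with the size factors of DESeq2 and with DESeq2. Leaving out 1 library gave -0.022 to 0.036 for the Efemp2 interaction, -0.20 to 0.022 for that of Mfap5, -0.045 to 0.0082 for that of Fbn1 and 0.086 to 0.62 for that of Efemp1. With library size alone the Fbn1 interaction was called (-0.08, FDR = 0.0278). In the same setting the median interaction of all genes tested went from -0.03 to -0.08. The cause was not tested. Of 376 alternative counts, 372 stayed within 1.5 times the main count. Those that did not were lower partners with a CPM filter, 14 in WT-TGF against WT-SD and 20 in KO-TGF against KO-SD, the latter also 20 with no filter, and 5 members with a lower interaction with no filter. These filters test more genes. Leaving out 1 library gave 3 to 4 members higher and 3 to 4 lower in KO-TGF against WT-TGF, and did not change the other member counts.

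Scaling by library size alone changed the split of all calls from 4127 higher and 4195 lower to 2652 and 6002 in WT-TGF against WT-SD, from 4016 and 4484 to 2305 and 6667 in KO-TGF against KO-SD, from 3515 and 2904 to 2446 and 4164 in KO-SD against WT-SD, from 3130 and 3199 to 1647 and 5383 in KO-TGF against WT-TGF, and from 1007 and 1904 to 687 and 2651 in the interaction. The interaction split without KO-TGF replicate 1, 2 or 3 was 1317 and 1423, 1234 and 1419, or 1240 and 1384. Equally numbered libraries did not deviate together (correlations -0.0287 to 0.0868 over 18 pairs), and with the replicate number as a block, 5 members were higher and 3 lower in WT-TGF against WT-SD and no member call changed. Depth limits Eln in WT-SD (3 to 9 counts) and Efemp1 in KO-TGF (5 to 12 counts).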
